A study of Homo sapiens and Mus musculus with 19 samples.

Results

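The genes described here are the very long protein-coding genes whose RNA was counted on the chromatin of mouse embryonic stem (mES) cells. A gene was included when it was protein-coding and autosomal, when its annotated span from first to last base (GENCODE, GRCm38/mm10) was 300 kb or more, and when it held at least 10 counts in 3 or more of 6 libraries. Of 540 genes of that span, 535 met the count rule, out of 54446 genes listed per file. All 535 passed the filter on low counts used for the test, 534 had at least 10 counts in each of the 6 libraries, and 0 reached 10 counts in the siNsun2 libraries alone. The 5 left out were Schip1, with 0 to 5 counts per library, and Gse1, Gm37013, Gm37388 and Gm42416, listed at 0.

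Chromatin-associated RNA (caRNA) was sequenced from mES cells transfected with a control siRNA (siControl, 3 libraries) or with siRNA against Nsun2 (siNsun2, 3 libraries), which encodes an RNA methyltransferase that makes 5-methylcytosine. The labels give the genotypes as control and Nsun2 knockdown, with no siRNA dose or time. Both groups were grown with serum, LIF, CHIR99021 and PD0325901, and were passaged on gelatin to clear feeder cells. The study describes its genome-wide replicates as biological. The labels do not say whether the 3 libraries of a group came from separate cultures, and p-values measure the spread between these libraries. Library sizes were 62989044 to 66832780 gene counts for siControl and 58078323 to 59411087 for siNsun2. Nsun2 itself was at 129 ± 3.4 CPM (counts scaled to library size) in siControl and 102 ± 3.5 in siNsun2 (mean ± SD, n = 3 each), so that its log2 change was -0.34 ± 0.03 (edgeR, SE, adjusted p = 2.7e-16). Its read density was 32.1 times that of olfactory receptor genes, a scale set out below. Shorter protein-coding genes at 32 to 64 times had a median log2 change of -0.20, and 68.4% of them were called lower. The share of records that the counting assigned to no feature was 19.6% to 20.2% in siControl and 28.9% to 29.9% in siNsun2. With counting by strand this share would include reads on the strand opposite a gene. The 12 pluripotency markers summed to 1979 to 2015 CPM in siControl and 1518 to 1552 in siNsun2. Of the 11 that could be tested, 8 were called lower (72.7%) and 2 higher, with a median log2 change of -0.22. Their median read density was 223 times that of the olfactory receptor genes. Of the shorter protein-coding genes at 64 times or more, 80.6% were called lower, with a median of -0.22, so that the list was close to genes of its density. The largest decreases among the markers were those of Klf4 (-0.81), Tbx3 (-0.75) and Tfcp2l1 (-0.66). What part the marker changes had in the changes of the very long genes was not tested. Sox2 and the neural markers Tubb3, Neurod1 and Sox1 were at 0 in every library. All 4 genes at 0 share their strand with an overlapping annotated gene, so that their reads would have been set aside.

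A very long gene is almost entirely intron. RNA polymerase II has to stay on the template for hours to finish such a gene, so that chromatin-associated, unspliced RNA is a sensitive readout of it, and topoisomerases and elongation factors are known to matter most for genes of this kind. Many encode cell-adhesion molecules, ion channels and scaffolds of neurons, which stem cells hardly transcribe, while others, among them several at common fragile sites, are used in most dividing cells. The 535 genes had a median span of 449.6 kb, of which exons took a median of 1.80% (9.26 kb), against 20.8 kb and 18.5% for the 17397 tested protein-coding autosomal genes under 300 kb. The median largest intron was 140.2 kb. There were 321 genes of 300 to 500 kb, 159 of 500 to 1000 kb and 55 of 1000 kb or more. An annotated gene on the same strand overlapped 357 of them (66.7%). Reads in such stretches were set aside by the counting, and the levels of these genes are lower limits.

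In siNsun2, 380 of the 535 very long genes were called higher and 119 lower, and 36 did not pass the test (edgeR quasi-likelihood test, Benjamini-Hochberg adjusted over 27603 genes, threshold 0.05). Over all genes tested, 25.8% were called higher and 24.3% lower, so that 71.0% of the very long genes higher stood well above the background and 22.2% lower stood close to it. Their median log2 change was 0.49, with quartiles at -0.01 and 0.65, beside 0.14 over all genes tested and -0.04 over the shorter protein-coding genes. Changes of 2-fold or more were found for 10 genes higher and 0 lower, beside 8.15% and 0.232% of all genes. The siNsun2 libraries all lay above the siControl libraries for 382 genes, all lay below for 121, and the groups overlapped for 32, whereas 30.3% of all genes tested lay wholly above and 26.3% wholly below. The split of calls depended on the scaling of the libraries: 76.2% of the calls among very long genes were in the higher direction with TMM scaling, 73.1% with DESeq2 size factors, 86.5% with total gene counts, 88.3% with TMM on well-covered shorter genes and 90.7% with a loess offset. The same share over all genes tested was 51.5%, 44.9%, 79.8%, 83.6% and 45.7%. With total gene counts and with TMM on well-covered shorter genes this share came close to that of all genes, but it counts only genes that were called. With total gene counts 428 of the 535 very long genes were called higher, beside 10232 of all 27603 genes. The median log2 changes were 0.67 and 0.32. With TMM on well-covered shorter genes the counts were 438 and 10835, with medians of 0.69 and 0.34. Over all of the scalings named, the median change over all genes ran from -0.01 (loess) to 0.34 (TMM on well-covered shorter genes). Changes are best read against that shift.

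At equal CPM a gene of 1000 kb has its reads spread over far more sequence than a gene of 10 kb, so each level was also expressed per kb of span. The scale for this was the read density over 1135 olfactory receptor genes, which encode odorant receptors of the nose and were taken as silent in stem cells. These genes cover 7672 kb in all and collected 13633 to 14685 counts per siControl library and 21006 to 22532 per siNsun2 library. Their density, as TMM-scaled CPM per kb, was 0.0283, 0.0313 and 0.0313 in the siControl libraries and 0.0442, 0.0471 and 0.0435 in the siNsun2 libraries. The groups did not overlap, and the log2 ratio of their means was 0.57. Of the 604 olfactory receptor genes that passed the filter, 107 were called higher and 3 lower, with a median log2 change of 0.67. At so low a level (median log2 CPM -1.62), genes could pass the filter through the siNsun2 libraries alone, which would raise this median. Of these 604 genes, 44 were at 2 times the pooled olfactory density or more in both groups, and they were kept in the scale.

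Most very long genes were hardly denser in reads than the olfactory receptor genes. Their median density was 1.76 times that of the olfactory receptor genes (mean of the 6 libraries). In 294 genes it was under 2 times, in 118 it was 2 to 10 times and in 123 it was 10 times or more. The shorter genes tested had a median of 11.2 times. Genes under 2 times were not thinly counted, since the median over them of their count per library was 1444.

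The change in siNsun2 followed this density. Of the 294 genes under 2 times, 288 were called higher and 1 lower, with a median log2 change of 0.61, close to the 0.57 of the olfactory receptor density. Of the 118 genes at 2 to 10 times, 77 were called higher and 23 lower, with a median of 0.22. Of the 123 genes at 10 times or more, 15 were called higher and 95 lower, with a median of -0.21. Shorter genes of the same density had medians of 0.73, 0.20 and -0.20 in these 3 ranges. The 0.73 is open to the same effect of the filter as the olfactory median of 0.67. Over the 535 genes, Spearman's rho between log2 change and density was -0.74 and between log2 change and span 0.17. These are descriptions across genes of the same 6 libraries, and density enters the change of each gene through the same counts.

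**Figure D1:**
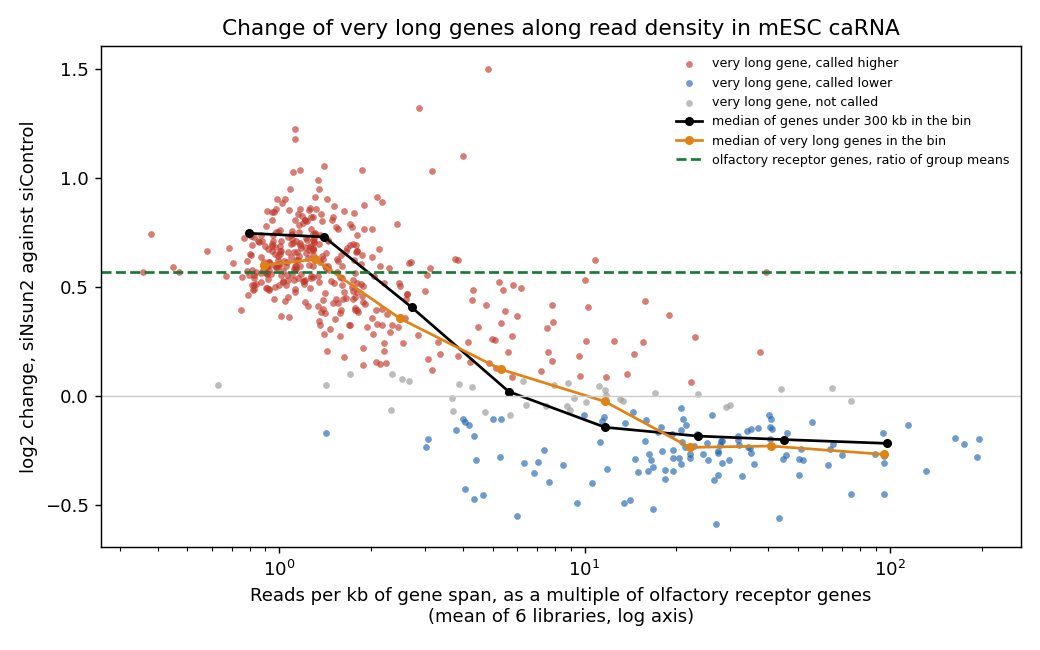
Log2 change in siNsun2 against siControl (y axis) against reads per kb of gene span as a multiple of the olfactory receptor genes (x axis, log scale, mean of 6 libraries). Each point is a very long gene, lines join bin medians of very long genes and of genes under 300 kb, and the dashed line is the log2 ratio of olfactory receptor density (0.57). Genes near a multiple of 1 lie around the dashed line and those above 16 lie mostly below 0. The 3 genes with a multiple under 0.3 are outside the plot.

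For the densest very long genes the direction depended on the scaling. With TMM scaling 15 of 123 were called higher and 95 lower. With DESeq2 size factors these counts were 12 and 101, with total gene counts 40 and 55, with TMM on well-covered shorter genes 48 and 48, and with a loess offset 57 and 33, where the class median was 0.03. The genes under 2 times were called higher in 285 to 291 of 294 cases under all of these scalings, and 0 or 1 were called lower.

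Shorter genes of like expression gave opposite pictures by CPM and by density. Against genes under 300 kb within 0.25 of the same mean log2 CPM, the very long genes were higher by a median of 0.67, and 457 of the 513 that had at least 20 such genes lay above them. Between log2 CPM 4 and 5, for example, the median log2 change was 0.60 for 157 very long genes and -0.17 for 1843 shorter genes, whose densities were 1.29 and 30.4 times that of olfactory receptor genes. Between log2 CPM 9 and 10 it was -0.22 for 25 very long genes and -0.25 for 103 shorter ones. Against genes under 300 kb of like CPM per kb, the very long genes were lower by a median of 0.08 (difference -0.08), and 359 of 532 lay below them. Most of these were genes under 2 times the olfactory density, of which 228 of 291 lay below, with a median difference of -0.12. Shorter genes under 2 times had a median log2 CPM of -0.35, against 4.56 for the very long ones. Such thinly counted genes could pass the filter through the siNsun2 libraries alone, which would raise the reference. What part this had in the difference was not tested. At 10 times the olfactory density or more the difference was 0.03 by CPM and -0.01 by density.

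**Figure D2:**
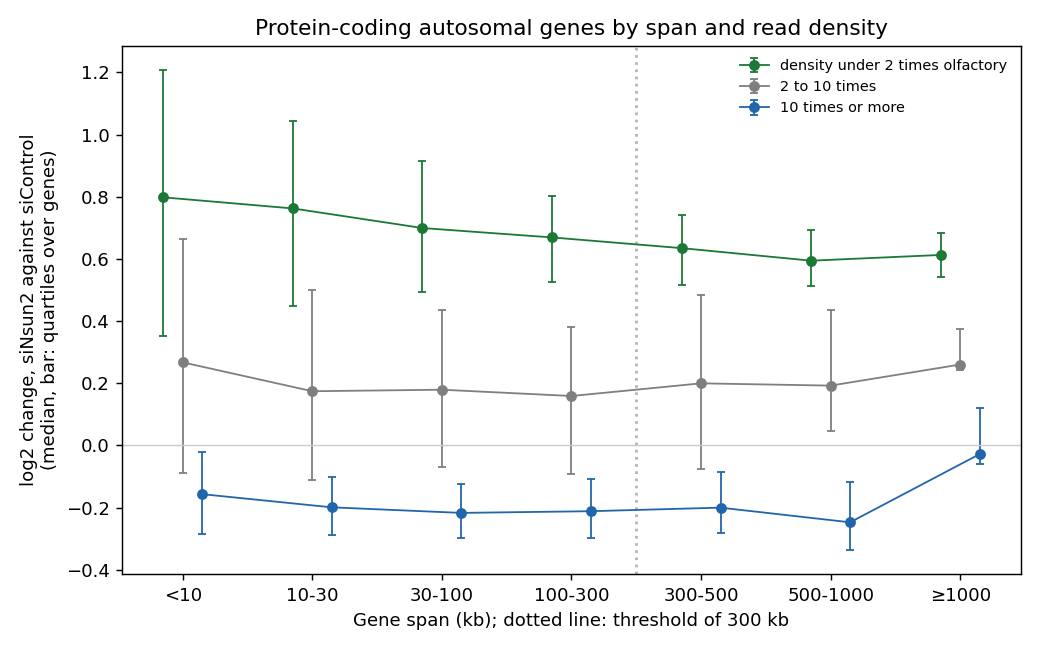
Median log2 change in siNsun2 against siControl (y axis, bars from lower to upper quartile over genes) of protein-coding autosomal genes in 7 span ranges (x axis, kb), drawn for 3 ranges of read density relative to olfactory receptor genes. Under 2 times the medians fall from 0.80 for genes under 10 kb to 0.59 for genes of 500 to 1000 kb, and at 10 times or more they are -0.16 and -0.25. Short genes of low density could pass the filter on low counts through siNsun2 alone, which would raise their medians. The densest genes of 1000 kb or more number 3.

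Span itself sorted the genes by how many were near the olfactory density. Of the 55 genes of 1000 kb or more, 52 were called higher and 1 lower, with a median log2 change of 0.59 and a median density of 1.22 times. Of the 321 genes of 300 to 500 kb, 209 were called higher and 88 lower, with a median of 0.41 and a density of 2.14 times. Among genes under 2 times the olfactory density, the median change was 0.63 for 154 genes of 300 to 500 kb, 0.59 for 95 genes of 500 to 1000 kb and 0.61 for 45 genes of 1000 kb or more. The 178 very long genes with no overlapping gene on their strand had a median of 0.45 and the 357 with one had 0.49.

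The share of all gene counts that fell on very long genes was 8.78%, 8.89% and 8.92% in the siControl libraries and 9.45%, 9.52% and 9.45% in the siNsun2 libraries (8.86% ± 0.07 and 9.48% ± 0.04, SD, n = 3 each). The groups did not overlap, and the difference was 0.61 percentage points. The genes under 2 times the olfactory density took 0.63% ± 0.03 of counts in siControl and 1.08% ± 0.05 in siNsun2. The genes at 2 to 10 times took 0.87% ± 0.01 and 1.12% ± 0.02. The 123 densest genes took most of the counts and went the other way, with 7.37% ± 0.04 and 7.28% ± 0.03. When all read records were the denominator, those given to no gene included, the share of the very long genes was 6.45% in siControl and 6.03% in siNsun2, a change of sign.

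**Figure D3:**
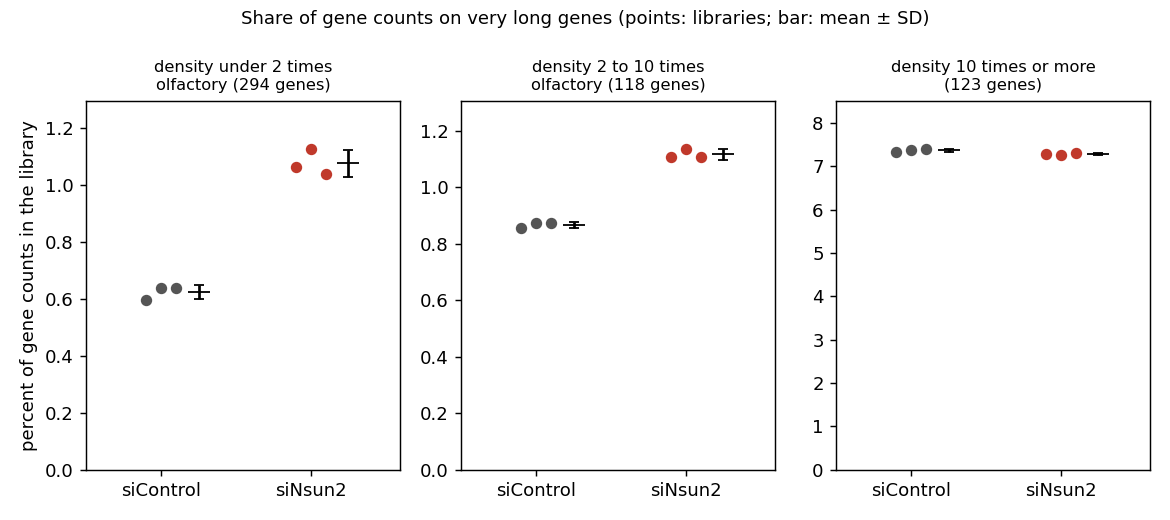
Percent of gene counts per library (y axis, from 0) on very long genes of 3 density ranges, for 3 siControl and 3 siNsun2 libraries (points) with mean ± SD beside them. The shares of the 2 lower ranges are higher in every siNsun2 library, and that of the densest genes is slightly lower (7.37% and 7.28%).

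A single library from another experiment, labelled Pspc1 WT, gave a second view of density in mES cells. It held 91990658 gene counts, its olfactory density was 0.00688 CPM per kb (total gene counts), beside 0.0266 to 0.0295 in siControl and 0.0461 to 0.0506 in siNsun2, and 10.7% of its records were assigned to no feature. The median density of the genes under 2 times was 0.00452 CPM per kb there, which lay under the olfactory density of that library. It was 0.0305 to 0.0333 in siControl and 0.0564 to 0.0610 in siNsun2. That of the 123 densest genes was 0.855, beside 0.896 to 0.917 and 0.877 to 0.885. Of these 123 genes, 122 were also at 10 times or more in the Pspc1 WT library, and 1 of the 294 lowest genes was. Of these 294, 233 were also under 2 times in that library and 61 were not. What part the reads assigned to no feature and the olfactory density had in the changes of single genes was not tested.

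The olfactory density times span was also taken off each library before the ratio was formed, for the 225 very long genes at 2 times or more in both groups. Of these, 77 then lay above 0 and 148 below, with a median log2 ratio of -0.16. The same median was -0.17 over all 17072 genes at 2 times or more in both groups and -0.19 over the shorter protein-coding genes among them. Before anything was taken off, 78 of the 225 had been called higher and 118 lower. More is taken off in siNsun2, which lowers every ratio under that of the olfactory density, and 3 of the 78 genes called higher became negative. A ratio of 2-fold or more was left for 4 genes higher and 0 lower. The 4 were Enox1, Ror1, Adamtsl1 and Kcnh8.

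Enox1 had the largest increase of all. It encodes a cell-surface NADH oxidase and spans 565.0 kb (chr14:77156763-77721760, plus strand). Its level was 57.6, 55.6 and 57.4 CPM in siControl and 159, 160.4 and 163 in siNsun2. Every siNsun2 library stood far above every siControl library, with a log2 change of 1.50 ± 0.03 (SE; edgeR adjusted p = 6e-58). Its density rose from 3.33 to 6.34 times that of olfactory receptor genes, and the log2 ratio was 1.77 after the olfactory density was taken off. In the Pspc1 WT library it stood at 43.6 times, on an olfactory density that was itself lower there. That density was 0.00688 CPM per kb (total gene counts), beside means of 0.0285 in siControl and 0.0478 in siNsun2. A multiple in that library therefore stands for a lower level than the same multiple in siControl or siNsun2.

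Ror1, a receptor tyrosine kinase-like protein that binds Wnt5a, spans 349.0 kb (chr4:100095791-100444765). It measured 21.7, 22.8 and 23.1 CPM in siControl and 55.2, 54.4 and 58.9 in siNsun2, a log2 change of 1.32 ± 0.05. Adamtsl1, a secreted ADAMTS-like glycoprotein that lacks protease activity, spans 914.2 kb (chr4:85514172-86428385) and measured 87.5, 88.8 and 95.5 CPM in siControl and 191, 191 and 201 in siNsun2, a log2 change of 1.10 ± 0.03. Kcnh8, a voltage-gated potassium channel of 376.5 kb (chr17:52602709-52979194), measured 29.3, 31.0 and 30.6 CPM in siControl and 61.7, 62.7 and 61.3 in siNsun2, a log2 change of 1.03 ± 0.05. For none of these did the groups overlap. With the olfactory density taken off, the log2 ratios were 1.76 for Ror1, 1.29 for Adamtsl1 and 1.25 for Kcnh8, and all 3 had been under 4 times that density in siControl.

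The other 6 of the 10 largest increases were at 0.87 to 1.56 times the olfactory density in siControl. Gabbr2, a subunit of the metabotropic GABA-B receptor (329.6 kb, chr4:46662305-46991873), had 504, 579 and 514 counts in siControl and 1321, 1326 and 1178 in siNsun2, or 8.03, 9.75 and 8.42 CPM and 21.0, 21.3 and 18.7 CPM. Its log2 change of 1.22 ± 0.08 took it from 0.87 to 1.37 times the olfactory density. In the Pspc1 WT library it was at 0.043 times the lower olfactory density there. Cacna1e, the pore-forming subunit of the R-type calcium channel, went from 0.89 to 1.36 times, with 12.8, 13.6 and 13.5 CPM in siControl and 31.0, 31.9 and 27.5 in siNsun2 (log2 change 1.18 ± 0.07). The remaining 4 were Ptprt (1.05), a receptor tyrosine phosphatase, Ankfn1 (1.03), Cadps2 (1.03), which primes dense-core vesicles, and Kirrel3 (1.03), an immunoglobulin-type adhesion molecule. All 6 had log2 changes above that of the olfactory receptor density itself (0.57), with libraries that did not overlap between groups. Both follow from how they were picked, as the largest changes among called genes with groups apart. The median over the 294 genes under 2 times was itself 0.61.

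**Figure D4:**
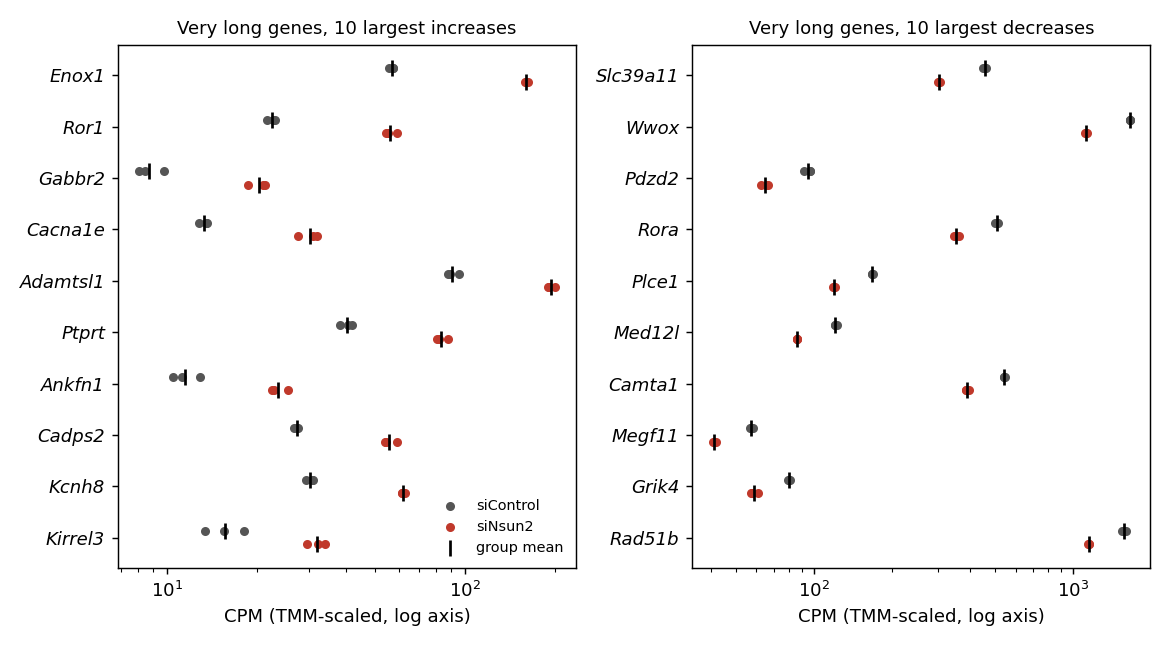
CPM (x axis, TMM-scaled, log axis) in each of 3 siControl and 3 siNsun2 libraries for the 10 very long genes with the largest increases (left) and the 10 with the largest decreases (right), with group means as vertical ticks. The groups are apart in all 20 genes, as the rule for naming them required, and the replicates of a group lie close together compared with the gap.

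The largest decreases were smaller than the increases and sat in denser genes. Slc39a11, a zinc transporter of 405.2 kb (chr11:113244853-113650079), measured 459, 458 and 450.2 CPM in siControl and 300.1, 307 and 302 in siNsun2. Its log2 change was -0.59 ± 0.02 (SE; edgeR adjusted p = 2.6e-39). Wwox, a tumour suppressor oxidoreductase at a common fragile site (913.1 kb, chr8:114439655-115352708), measured 1649, 1649.8 and 1649 CPM in siControl and 1112, 1122 and 1127 in siNsun2, a log2 change of -0.56 ± 0.02. Rora, a nuclear receptor (734.5 kb, chr9:68653786-69388246), measured 513, 508 and 499 CPM against 346, 352 and 362, a log2 change of -0.52 ± 0.02. Rad51b, a homologous recombination protein (517.4 kb, chr12:79297282-79814690), measured 1540.03, 1565 and 1594 CPM against 1152, 1138 and 1149, a log2 change of -0.45 ± 0.02. Shorter genes of like density had medians of -0.19, -0.20, -0.18 and -0.21 beside these 4 genes. Each of the 4 fell further, which follows from how they were picked, as the largest decreases among called genes with groups apart.

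The other 6 of the 10 were Pdzd2 (-0.55), a PDZ-domain protein, Plce1 (-0.49), a phospholipase C, Med12l (-0.49), a subunit of the Mediator kinase module, Camta1 (-0.48), a calmodulin-binding transcription factor, Megf11 (-0.47), an EGF-repeat adhesion protein of retinal neurons, and Grik4 (-0.46), a kainate receptor subunit. Pdzd2, Megf11 and Grik4 were at 4.34 to 6.01 times the olfactory density, and their log2 ratios were -0.80, -0.83 and -0.77 once it was taken off. Med12l was at 9.46 times, and Plce1 and Camta1 at 13.5 and 14.1 times. All 20 genes named for the largest changes kept their sign and stayed called in the main fit and in all 14 other scalings, filters, tests and left-out libraries, where Enox1 ran from 1.44 to 1.70 and Slc39a11 from -0.65 to -0.36.

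The longest genes were mostly near the olfactory density. Gm20388 (4435 kb, 90 overlapping genes on its strand) and Fgfr2 (2961 kb, 36 overlapping genes), which encodes a fibroblast growth factor receptor, are long through transcript models that run across their neighbours. Their densities over the whole span were 2.08 and 2.02 times, and their log2 changes 0.39 and 0.36. Ptprd (2271 kb), a receptor phosphatase of synapses, measured 60.6, 66.2 and 69.9 CPM in siControl and 92.1, 94.3 and 88.7 in siNsun2, at 0.93 times the olfactory density. Lsamp (2197 kb), a limbic adhesion molecule, measured 54.1, 61.5 and 64.7 CPM and 93.1, 102 and 96.6, at 0.94 times. Cntnap2 (2245 kb), a neurexin-like adhesion protein of axons, had the smaller log2 change of 0.31 ± 0.03 at 1.47 times. All 5 passed the test as higher, and the groups did not overlap in the 2 whose libraries are given.

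The very long genes with the highest CPM, a level not divided by length, moved by little, and their sign followed the scaling in 4 of 5. Exoc4, a subunit of the exocyst that tethers secretory vesicles (724.9 kb, chr6:33249085-33973979), measured 3066, 3091 and 3179.7 CPM in siControl and 2865, 2797 and 2859 in siNsun2. Its log2 change was -0.13 ± 0.02 with TMM scaling, and 0.05 with total gene counts, 0.07 with TMM on well-covered shorter genes and 0.14 with a loess offset. Dst (-0.22), a cytoskeletal linker, Cmss1 (-0.20) and Magi1 (-0.27), a scaffold of cell junctions, also took the other sign under at least 1 of these scalings. Arl15 (-0.28), a small GTPase, stayed below 0 under all of them. These genes stood at 95.6 to 195.7 times the olfactory density. Their changes of -0.28 to -0.13 stand beside a median of -0.22 over the shorter genes at 64 times or more. The median over the 17 very long genes at 64 times or more, which include these 5, was -0.27.

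By function, the very long genes of neuronal adhesion and signalling were mostly near the olfactory density and were called higher. The shares to set beside each list are 71.0% higher and 22.2% lower over all very long genes, and 25.8% and 24.3% over all genes tested. Of the 66 in the list for synaptic adhesion and axon guidance, 59 were called higher (89.4%) and 6 lower (9.09%). The list had a median log2 change of 0.58, and 54 of its genes were under 2 times the olfactory density. Its most abundant members were exceptions. Ptprg, a receptor phosphatase, measured 1609, 1575 and 1609.96 CPM in siControl and 1650.4, 1616 and 1654 in siNsun2, with a log2 change of 0.04 ± 0.02 that did not pass the test (edgeR adjusted p = 0.066). Tenm3 (-0.29), a teneurin that pairs across synapses, fell. Its relative Tenm4 was at -0.11 with TMM scaling, and at 0.08 with total gene counts, 0.10 with TMM on well-covered shorter genes and 0.15 with a loess offset.

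Of the 10 cadherins and protocadherins, 9 were called higher (90%) and 1 lower (10%), with a median of 0.64. Under 2 times the olfactory density were 9 of the 10. Cdh13, a cadherin held by a lipid anchor, and Pcdh15, a protocadherin of hair-cell tip links, rose (0.87 and 0.68), and Cdh4, a classical cadherin at 7.62 times, fell (-0.40). Of the 53 ion channels and neurotransmitter receptors, 47 were called higher (88.7%) and 3 lower (5.66%), with a median of 0.59, and 37 were under 2 times. Itpr1, the calcium channel of the endoplasmic reticulum and the densest of its 3 most abundant members at 62.7 times, fell (-0.32). Dpp6, an auxiliary subunit of potassium channels, rose by 0.15 ± 0.03. The neural marker list fixed beside these summed to 229 to 243 CPM in siControl and 213 to 218 in siNsun2, of which Stmn2 alone made 202 and 175. Of its 15 genes, 11 could be tested, of which 5 were called higher (45.5%) and 1 lower (9.09%). Over all genes tested 25.8% were called higher and 24.3% lower. The median density of the 11 was 3.81 times that of the olfactory receptor genes. Of the shorter protein-coding genes at 2 to 10 times, 28.8% were called higher and 9.25% lower.

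The lists with the largest share of dense members had the lowest medians. Of 62 second-messenger enzymes, kinases and scaffolds, 42 were called higher (67.7%) and 16 lower (25.8%), close to the shares over all very long genes. Their median was 0.37, and 17 were at 10 times the olfactory density or more. Camk1d, a calmodulin-dependent kinase (-0.27), and Diaph3, an actin-nucleating formin (-0.29), fell beside Magi1. Of 54 transcription factors and chromatin regulators, 33 were called higher (61.1%) and 15 lower (27.8%), with a median of 0.29 and 20 at 10 times or more. Smyd3, a lysine methyltransferase, measured 2205, 2168 and 2234 CPM in siControl and 1622, 1589 and 1631 in siNsun2, a log2 change of -0.45 ± 0.02, and Rere, a nuclear receptor co-regulator, was at -0.31 ± 0.02. Auts2, a cofactor of a Polycomb complex with 22 overlapping genes on its strand, went the other way, with 852, 849 and 855 CPM in siControl and 1035, 1016 and 1031 in siNsun2 (0.27 ± 0.02).

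Of 36 genes of the cytoskeleton and cell junctions, 22 were called higher (61.1%) and 14 lower (38.9%), with a median of 0.29, and 11 were dense. Macf1, a microtubule and actin crosslinker, was at -0.19, and with a loess offset at 0.08. Of 37 genes for matrix, secreted proteins and glycan enzymes, 32 were called higher (86.5%) and 3 lower (8.11%). Their median was 0.56, and 27 were under 2 times. Hs6st3, a heparan sulphate sulphotransferase, and St6galnac3, a sialyltransferase, fell (-0.37 and -0.32), and Gpc6, a glypican, was at -0.03 ± 0.02 (edgeR adjusted p = 0.31). Of 11 RNA-binding proteins, 9 were called higher (81.8%) and 1 lower (9.09%), with a median of 0.47. Rbfox1, a neuronal splicing regulator at 1.42 times, rose by 0.65 ± 0.04, Celf2 at 4.18 times was at -0.13 ± 0.03 (0.05 to 0.07 with total gene counts, TMM on well-covered shorter genes or loess), and Msi2, a translational regulator of stem cells at 74.6 times, was at -0.02 ± 0.02 (edgeR adjusted p = 0.31).

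Of 29 genes at common fragile sites, 20 were called higher (69.0%) and 7 lower (24.1%), close to the 71.0% and 22.2% of all very long genes. Their median was 0.38, and 13 were under 2 times the olfactory density, 8 at 2 to 10 times and 8 at 10 times or more. Their 3 most abundant members were Exoc4 (-0.13), Ptprg (0.04) and Wwox (-0.56).

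**Figure D5:**
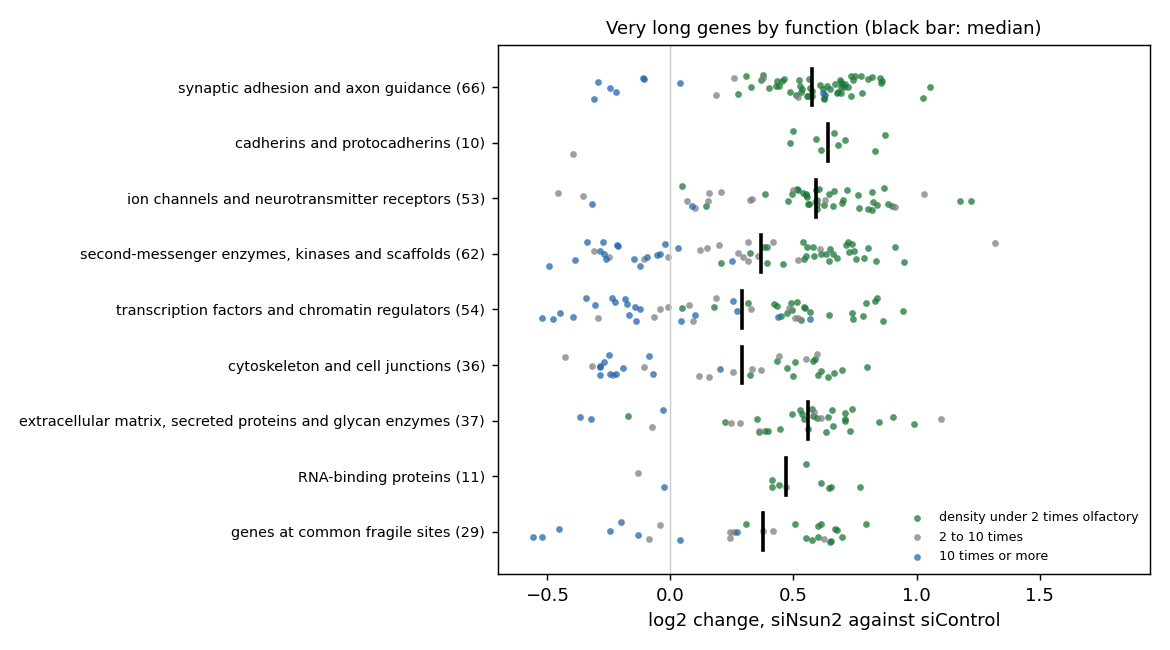
Log2 change in siNsun2 against siControl (x axis) of the very long genes in 9 functional lists, with the number of genes in each, coloured by read density relative to olfactory receptor genes. Black bars are medians, and height within a row has no meaning. Genes under 2 times the olfactory density lie to the right of 0 in every list but for 1 of the matrix list, and the densest mostly to the left.

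The 15 dense very long genes that were called higher included, chosen after their values were seen, Plxdc2 (0.62 ± 0.03), Bnc2 (0.57 ± 0.02) and Grip1 (0.53 ± 0.03). Bnc2, a zinc-finger protein at 39.4 times the olfactory density, measured 474, 478 and 482 CPM in siControl and 704, 699.6 and 719 in siNsun2. Its siNsun2 libraries all lay above its siControl libraries, and the log2 ratio was 0.57 with the olfactory density taken off. Plxdc2, a plexin-domain membrane protein at 10.8 times, measured 127, 126 and 131 CPM and 196, 198 and 198. The 1 gene under 2 times that was called lower was Chsy3, a chondroitin synthase, with 18.9, 19.7 and 19.9 CPM in siControl and 16.5, 16.8 and 18.6 in siNsun2 (log2 change -0.17 ± 0.07, edgeR adjusted p = 0.038).

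Factors that carry polymerase through long genes were themselves measured. Of 62 genes in the list for transcription elongation and topoisomerases, 61 could be tested, 51 were called lower (83.6%) and 1 higher, and their median log2 change was -0.18. Their median density was 94.0 times that of the olfactory receptor genes, and of the shorter genes at 64 times or more 80.6% were called lower, with a median of -0.22, so that the list was close to genes of its density. Of the 4 most abundant, 3 are given here: Hnrnpu, a nuclear matrix RNA-binding protein (-0.09 ± 0.02), Aff1, a scaffold of the super elongation complex (-0.37 ± 0.02), and Dhx9, an RNA helicase that resolves R-loops (-0.25 ± 0.02). With a loess offset Hnrnpu was at 0.15, and it was also above 0 with total gene counts and with TMM on well-covered shorter genes.

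The span threshold cut through genes of both kinds. Just above it were Kcnq3 (300.3 kb), a potassium channel at 3.75 times the olfactory density with a log2 change of 0.63, Pam (300.5 kb), a peptide-amidating enzyme at 5.14 times with 0.13, and Nxph1 (300.6 kb), a neurexin ligand at 1.10 times with 0.74. Just below it were Jazf1 (299.8 kb), a zinc-finger protein at 2.62 times with 0.50, Akap13 (299.1 kb), a kinase anchor at 22.5 times with -0.20, and Atp2b2 (298.8 kb), a calcium pump at 2.39 times with 0.69.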

How the data were processed

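caRNA of mES cells was sequenced by the authors after ribosomal RNA depletion with a stranded total-RNA kit. Per the submitters' processing notes, reads were trimmed with Trimmomatic (0.39), aligned with HISAT2 (2.2.1) to mm10 and counted with HTSeq (0.12.4). The study's methods name HTSeq for annotated genes and featureCounts for caRNAs, and each file closes with category totals in the format of HTSeq. The deposited values were raw counts per gene, 1 file per library. The feature type and strand setting of the counting are not given in the sources used here. All 1155 genes lying wholly inside a very long gene on its strand were at 0 in the 6 libraries, against 132 of 1084 on the other strand, so reads were taken as counted by strand over whole spans with shared stretches set aside. Lines that name no gene held 26.9% to 27.5% of siControl records and 35.9% to 36.8% of siNsun2 records and were left out. No spike-in scaling was used, and all levels are relative. The 12 K562 libraries were not analysed here.

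Spans came from GENCODE M21 (GRCm38), whose identifiers matched 99.93% of the file's (97.8% with the same version). Genes were tested with edgeR 4.0.16 (quasi-likelihood, TMM, robust, two-sided, filterByExpr at 10 counts) in R 4.3.3, with limma 3.58.1 as its dependency and DESeq2 1.42.0 as an alternative, on 3 siControl and 3 siNsun2 libraries, and p-values were adjusted over 27603 genes. SE came from the F statistic. CPM are TMM-scaled. Replicate pairs differed by a chi-square per degree of freedom of 3.86 to 5.67, so all counted as separate. The fit was also run on simulated data drawn from the means and dispersions of these libraries. Read density is counts per kb of span divided by the same over all olfactory receptor genes of that library. Other scalings, filters, tests, span thresholds and left-out libraries were tried.

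The very long genes and the gene lists were chosen with earlier results of these data known. Genes are named by this rule: the 10 largest and 10 smallest changes among called genes with groups apart and at least 2 CPM in the higher group, the 5 longest, the 5 most abundant, the 3 most abundant of each list with 3 or more such genes, the 3 on either side of 300 kb and the 4 most abundant elongation genes. Some genes that this rule names are not reported here. Others are said to have been chosen after their values were seen.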

Additional observations from a re-analysis of the deposited data

How the results depend on the processing

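The counts of very long genes called higher (380) stayed within 1.5 times under every scaling, filter, test and left-out library, and those called lower (119) did so except with total gene counts (67), TMM on well-covered shorter genes (58) and a loess offset (45). Their median log2 change (0.49) was 0.43 with DESeq2 size factors and with the DESeq2 Wald test, 0.67 with total gene counts, 0.69 with TMM on well-covered shorter genes, 0.58 with loess and 0.54 with a minimum count of 50. The cause of these shifts was not tested. With the olfactory density taken off, the median became -0.16 and the gap to shorter genes of like CPM (0.67) became 0.10. That alternative uses only the 225 genes at 2 times or more in both groups and gives no test, so no calls. In the main fit 78 of these 225 had been called higher and 118 lower. The move of the median from 0.49 thus holds the change of gene set as well as the subtraction. With only genes at 10 times that density, 15 were higher, the median was -0.21 and the gap 0.027, and on the span that no same-strand gene shares, a choice made after seeing the data, these were 16, -0.21 and 0.041. Against genes of like CPM per kb, some of which may have passed the filter through siNsun2 alone, the gap was -0.078. Genes without a same-strand overlap numbered 120 higher and 41 lower. At 200 kb, 293 were lower, with a median of 0.35 and a gap of 0.54, and at 500 kb 171 were higher and 31 lower, with a median of 0.54 and a gap of 0.73. A 2-fold minimum left 10 higher and 0 lower. The share of counts (a difference of 0.61 percentage points) was 0.75 over autosomal protein-coding genes, -0.42 over all records and 0.37 at 500 kb.

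Leaving out 1 library at a time gave 373 to 380 genes higher, 115 to 123 lower, medians of 0.44 to 0.49, gaps of 0.63 to 0.69 and share differences of 0.57 to 0.64. Same-numbered libraries did not deviate together (correlations of 0.0001, 0.025 and -0.002), so the numbers were not read as pairs, and not every library correlated best with its own number. With the replicate block, 381 genes were higher and 121 lower, the median was 0.49 and the gap 0.67.

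Among named genes, the sign turned with a loess offset for Exoc4 (0.14), Dst (0.054), Cmss1 (0.074), Magi1 (0.00105), Tenm4 (0.15), Macf1 (0.077), Gpc6 (0.20), Msi2 (0.23), Celf2 (0.070), Akap13 (0.013) and Hnrnpu (0.15). With TMM on well-covered shorter genes it turned for Exoc4 (0.073), Cmss1 (0.00910), Tenm4 (0.10), Macf1 (0.013), Gpc6 (0.18), Msi2 (0.18), Celf2 (0.073), Akap13 (0.00011) and Hnrnpu (0.11). With total gene counts it turned for Exoc4 (0.049), Tenm4 (0.075), Gpc6 (0.15), Msi2 (0.16), Celf2 (0.049) and Hnrnpu (0.089). Ptprg was at -0.023 with DESeq2 size factors and the Wald test, and Gpc6 and Msi2 at 0.030 and 0.034 with a minimum count of 50. Nsun2 was called lower under each of these scalings, filters, tests and left-out libraries. The size of its decrease (-0.34 in the main fit) moved with the scaling and was smaller under some of them.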

Other observations

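Beyond the genes named by rule, and chosen after their values were seen, the very long genes that stayed furthest above 0 once the olfactory density was taken off included Pdzrn4 (log2 ratio 0.94), Sh3rf3 (0.77), Fhit (0.64), a tumour suppressor at a common fragile site, and Thsd4 (0.64), a secreted matrix protein. They stood at 2.12 to 3.85 times the olfactory density, so that these ratios rest on a small remainder over the olfactory level. Those furthest below 0 beside the named ones were Fmn1 (-0.80), an actin-nucleating formin, Myo5b (-0.67), a vesicle motor, Tmem117 (-0.61) and Nr3c2 (-0.57), the mineralocorticoid receptor, at 3.02 to 4.40 times. Fhit and Wwox, both at fragile sites, thus lay on opposite sides of 0. The difference between them was not tested.

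Of the 123 densest genes, 13 did not pass the test, among them Ptprg, Msi2, Gpc6 and Dock1, a guanine nucleotide exchange factor, with a log2 change of 0.03 (edgeR adjusted p = 0.18).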
